A study of Mus musculus with 15 samples.

Results

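The 8 genes Tmem119, Kcne3, Tifab, Fut7, Cbfa2t3, Sun3, Gna15 and Lmnb2 had a lower signal in dendritic cells given either of 2 compounds alone than in non-treated cells, and a higher signal when both compounds were given together than with either alone. They are 8 of 12701 genes tested, and 13 of the 45037 probe sets on the array were mapped to one of their symbols only. They were chosen by their signal for this pattern, a fall with dinitrofluorobenzene (DNFB) alone and with diphenyl iodonium (DPI) alone but less with DPI + DNFB, on the arrays of those groups. Their values in those groups are therefore given as a description with no test. The hydrogen peroxide (H2O2) arrays were not used in the choice, and H2O2 against non-treated is the comparison in which the 8 genes were tested.

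The cells were a dendritic cell line that came from the epidermis of newborn mice of the A/J background, a genetic background that all groups shared. There were 5 groups of 3 arrays: non-treated cells, cells given DNFB (a contact allergen that binds proteins), cells given H2O2 (an oxidant), cells given DPI (an inhibitor of NADPH oxidases and other flavoenzymes, which lowers the production of reactive oxygen species), and cells given DPI + DNFB. Doses, times and the number of cultures behind the arrays are not given in the labels, and the sample titles call the controls non-treated where the design text speaks of vehicle. The p-values below therefore measure the spread between arrays, which may be technical.

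The products of the 8 genes sit in different places in the cell. Tmem119 encodes a single-pass membrane protein that is widely used to mark microglia, the macrophages of the brain. Kcne3 encodes a beta subunit that joins voltage-gated potassium channels and changes how they open. Gna15 encodes a G protein alpha subunit of the Gq class, found mainly in blood cells, which couples many receptors to phospholipase C-beta. Tifab encodes a relative of TIFA, an adaptor that passes signals to TRAF6 and NF-kB, and Tifab restrains that pathway. Fut7 encodes the fucosyltransferase that completes sialyl Lewis x, the sugar by which leukocytes bind selectins on vessel walls. Cbfa2t3 (also called ETO2 or MTG16) encodes a corepressor that acts with TAL1 and RUNX transcription factors. Lmnb2 encodes a B-type lamin of the nuclear lamina, and Sun3 encodes a SUN-domain protein of the inner nuclear membrane that links the nucleus to the cytoskeleton and is known mainly from male germ cells.

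Promoter windows from RefSeq (build GRCm38.p6, 250 bases ending just before an annotated start) were found for 7 of the 8 genes, with 12 starts in all. They were searched on both strands for 7 short motifs, of which 2 are marked below because they belong to factors named for these genes or for oxidant responses: the RUNX core TGTGGT and the core of the NRF2 element, TGACNNNGC. The first windows of Sun3, Gna15 and Cbfa2t3 are shown because they hold a match, and that of Lmnb2 as an example with neither; the windows of Kcne3 and Tifab held neither as well. Each is written 5′ to 3′ on the gene's strand, which is the minus strand for all 4, with matches to the 2 motifs on either strand in capitals. The windows are chr11:9048992-9049241 for Sun3, chr10:81524226-81524475 for Gna15, chr8:122699110-122699359 for Cbfa2t3 and chr10:80918246-80918495 for Lmnb2.
Sun3: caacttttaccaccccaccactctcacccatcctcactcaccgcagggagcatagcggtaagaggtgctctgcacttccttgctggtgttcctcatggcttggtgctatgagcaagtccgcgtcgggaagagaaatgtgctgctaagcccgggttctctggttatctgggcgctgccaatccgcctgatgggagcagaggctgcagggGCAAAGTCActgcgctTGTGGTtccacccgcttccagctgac
Gna15: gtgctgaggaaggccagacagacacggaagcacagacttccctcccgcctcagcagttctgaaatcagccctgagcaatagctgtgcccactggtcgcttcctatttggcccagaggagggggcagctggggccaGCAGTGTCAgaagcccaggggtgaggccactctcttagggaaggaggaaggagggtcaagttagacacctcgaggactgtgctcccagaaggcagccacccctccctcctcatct
Cbfa2t3: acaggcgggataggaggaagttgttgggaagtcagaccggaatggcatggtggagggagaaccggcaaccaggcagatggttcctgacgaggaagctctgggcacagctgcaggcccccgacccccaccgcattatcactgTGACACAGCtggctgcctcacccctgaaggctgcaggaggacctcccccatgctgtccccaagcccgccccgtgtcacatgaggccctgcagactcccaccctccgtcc
Lmnb2: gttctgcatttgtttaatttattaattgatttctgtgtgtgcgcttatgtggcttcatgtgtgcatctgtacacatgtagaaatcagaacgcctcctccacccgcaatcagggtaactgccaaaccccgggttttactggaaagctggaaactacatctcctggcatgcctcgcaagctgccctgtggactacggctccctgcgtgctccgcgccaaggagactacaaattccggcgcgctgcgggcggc
In the Sun3 window the RUNX core began 26 bases before the start and the NRF2 core, on the other strand, 42 bases before it. The NRF2 core lay 115 bases before the start of Gna15 and 109 bases before that of Cbfa2t3. Over the 12 starts, TGACNNNGC was found in 4, belonging to Fut7, Cbfa2t3, Sun3 and Gna15, and in 10.2% of all 32851 windows. TGTGGT was found in 3 starts, belonging to Fut7 and Sun3, and in 14% of all windows. The other motifs were as follows. GAGGAA, an ETS core with its flank, was found in 5 of the 12 starts, belonging to Fut7, Cbfa2t3, Sun3 and Gna15, and in 23.3% of all windows. The GC box GGGCGG was found in 5 starts, belonging to Kcne3, Fut7, Cbfa2t3 and Lmnb2, and in 32.7% of all windows. The AP-1 site TGANTCA was found in 1 start, of Kcne3, and in 6.75% of all windows. The GATA site AGATAA was in 2 starts, of Fut7 and Sun3, and in 9.99%. The E-box CAGCTG was in 3 starts, of Cbfa2t3, Sun3 and Gna15, and in 13%. No listed motif was in all 7 genes. A match shows only that the letters are there.

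The signals are the deposited intensities after each array was rescaled to one 2% trimmed mean of 500, and they have no absolute unit. Levels are compared between groups for one probe set, and a level of one gene is not set against that of another. Folds and log2 differences were taken after adding 15 to each signal, so the folds of dim genes are understated. Errors of percentages are SDs over 3 arrays, and errors of log2 differences are the SE of the fit. Because RNA was taken from whole cultures, fewer cells that express a gene and less RNA per cell cannot be told apart.

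On the arrays as a whole, Pearson's r over the 12701 genes was 0.946 to 0.973 for arrays within 1 group. Of 18 dendritic and myeloid markers 17 were bright enough to be tested, among them the pan-leukocyte gene Ptprc (mean signal 12350 in non-treated cells), the antigen-presentation genes Cd74 (28220) and H2-Aa (34630), and Cd207 of Langerhans cells (135.4). Ccr7 was not. Of the markers of other cell types, those bright enough were 3 of 7 for keratinocytes, 1 of 6 for fibroblasts, 1 of 5 for T cells, 3 of 5 for melanocytes and 2 of 5 for mast cells. The 3′ to 5′ signal ratio of beta-actin was 2.07, 1.5 and 2.29 on the DPI + DNFB arrays against 1.19 to 1.53 on the other 12. The same ratio of Gapdh was 1.09, 0.952 and 1.27 on the DPI + DNFB arrays against 0.814 to 0.922 on the other 12, and the median signal per array was 112.9 to 132 against 92.87 to 114. DPI + DNFB is the group in which the 8 genes return, and the part of these differences in the return was not tested. DPI + DNFB replicate 2 had a beta-actin ratio of 1.5, inside the range of the other groups, and a Gapdh ratio of 0.952, above it. On that array all 8 genes had a higher signal than on every DNFB and every DPI array. For Lmnb2 the margin was small, 138.3 against 137.6 on DPI replicate 1. The signal of the 8 genes on replicate 2 was between 37.7% (Tifab) and 98.1% (Gna15) of the non-treated mean. These arrays were used in the choice and no share over all genes was taken, so this ordering is a description.

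Tmem119, the membrane protein, had groups that stood well apart. Its signal was 2427, 1971 and 1775 on the non-treated arrays, 312, 234 and 271 with DNFB, and 466, 605 and 508 with DPI. With DPI + DNFB it was 1294, 1181 and 1522, and with H2O2 it was 291, 478 and 323. The DPI + DNFB arrays lay between the other groups without touching them: all were below every non-treated array and above every array with a single treatment. As a share of the non-treated mean, Tmem119 stood at 13.2% ± 1.91 (SD, n = 3) with DNFB, 25.6% ± 3.46 with DPI and 64.7% ± 8.44 with DPI + DNFB. The DPI + DNFB level was 4.7-fold the DNFB level and 2.49-fold the DPI level. With H2O2 the share was 17.7% ± 4.86, and it fell by 2.47 ± 0.185 on the log2 scale or 5.55-fold (limma, adjusted p = 9.34e-09).

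Kcne3 was a dim gene whose single-treatment levels lay near the lower end of the array. The non-treated arrays had signals of 293.9, 258 and 244, and the DPI + DNFB arrays 165.6, 160.3 and 208. With DNFB the signals were 52, 8.46 and 43.2, with DPI 38.2, 74.9 and 39, and with H2O2 80.5, 37.4 and 3.65. The order was the same as for Tmem119, with no overlap between the non-treated, the DPI + DNFB and the single-treatment arrays, but the means with DNFB, DPI and H2O2 were below the level at which a gene was kept for testing, so their order has little support. The share of the non-treated mean was 13% ± 8.67 with DNFB, 19.1% ± 7.9 with DPI and 67% ± 9.87 with DPI + DNFB. With H2O2 Kcne3 fell by 2.63 ± 0.533 on the log2 scale, or 6.17-fold (limma, adjusted p = 0.00087). Kcne3 was kept for testing through its non-treated and DPI + DNFB arrays, which were used in the choice. The p-value is therefore not independent of the choice, and the fold rests on an H2O2 level near the lower end. Without H2O2 replicate 3, the array with a signal of 3.65, the fall was 3.96-fold.

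Gna15, the G protein subunit, had DPI + DNFB arrays whose range overlapped that of non-treated cells. Signals were 719.7, 530.1 and 621 on the non-treated arrays and 372, 612 and 589.8 with DPI + DNFB, where replicate 1 was below every non-treated array. They were 157.5, 138 and 104 with DNFB, 209.7, 191 and 223 with DPI, and 184, 249.7 and 138 with H2O2. Every array with a single treatment was below every non-treated and every DPI + DNFB array. The mean share was 21.3% ± 4.37 with DNFB, 33.4% ± 2.58 with DPI and 84.1% ± 21.3 with DPI + DNFB. With H2O2 it was 30.6% ± 8.99, and it fell by 1.66 ± 0.245 on the log2 scale or 3.16-fold (limma, adjusted p = 3.65e-05).

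Tifab, the restrainer of TIFA signalling, returned least. Its main probe set had signals of 962, 982 and 642 on the non-treated arrays, 134.5, 138.6 and 75.2 with DNFB, and 154.5, 93.8 and 103.9 with DPI. With DPI + DNFB they were 351, 325 and 149, and with H2O2 31.2, 140.6 and 144.5. DPI + DNFB replicate 3, at 149, was within the range of the DPI arrays, so these groups overlapped. The share of the non-treated mean was 13.5% ± 4.11 with DNFB, 13.6% ± 3.78 with DPI and 31.9% ± 12.8 with DPI + DNFB. The level with DPI + DNFB was 2.14-fold that with DNFB and 2.1-fold that with DPI. With H2O2 Tifab fell by 3.04 ± 0.415 on the log2 scale, or 8.23-fold (limma, adjusted p = 1.47e-05), and 5.47-fold without H2O2 replicate 1. A second probe set of Tifab had 32.4% ± 8.55 of its non-treated mean with DPI + DNFB, 17% ± 6.79 with DNFB and 5.79% ± 3.5 with DPI. With H2O2 it fell by 2.57 ± 0.432 (limma over 27024 probe sets, adjusted p = 0.00022). Its mean with H2O2 was below the level kept for testing. It was kept through its non-treated and DPI + DNFB arrays, which were used in the choice.

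Fut7, the selectin-ligand enzyme, had about the same signal on all DPI + DNFB arrays, at 359.8, 322 and 379. The non-treated arrays had 749, 567 and 555, and the DPI arrays 82, 120.8 and 106.6. DNFB gave 90.2, 242 and 115.2 and H2O2 gave 138, 306 and 55. The DPI + DNFB arrays were below every non-treated array and above every array with a single treatment, while DNFB and H2O2 arrays were spread widely. The share was 23.9% ± 13.1 with DNFB, 16.5% ± 3.15 with DPI and 56.7% ± 4.64 with DPI + DNFB. With H2O2 it was 26.7% ± 20.5, and it fell by 2.07 ± 0.403 on the log2 scale or 4.2-fold (limma, adjusted p = 0.000603).

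Cbfa2t3, the corepressor, was the gene whose mean with DPI + DNFB was the highest of the 5 groups. Its main probe set had signals of 1731, 887 and 1334 with DPI + DNFB and 1544, 1024 and 988 on the non-treated arrays, and these ranges overlapped. The signals were 377, 275 and 279.9 with DNFB, 457, 491 and 333 with DPI, and 479, 404 and 592 with H2O2. All 9 arrays with a single treatment were below all 6 of the others. The share was 26.2% ± 4.85 with DNFB, 36% ± 7.04 with DPI and 111% ± 35.6 with DPI + DNFB. With H2O2 it was 41.5% ± 8.01, and it fell by 1.23 ± 0.233 on the log2 scale or 2.35-fold (limma, adjusted p = 0.000449). The other kept probe sets of Cbfa2t3 also came back, to 93.4% ± 14.4 and 86.3% ± 21.9 with DPI + DNFB. Their differences with H2O2, of -0.69 ± 0.275 and -0.63 ± 0.249 on the log2 scale, did not pass the test (limma over 27024 probe sets, adjusted p = 0.0856 and 0.0799). A dim further probe set, which was not kept, stood at 106% ± 118 of its non-treated mean with DPI, with signals of 228, 22.8 and 50.8, so that its share rests on DPI replicate 1.

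Sun3 and Lmnb2 both belong to the nuclear envelope. Sun3 had signals of 390.2, 348 and 386 on the non-treated arrays, 74.4, 62.7 and 73.4 with DNFB, and 61.2, 83.4 and 59.6 with DPI. With DPI + DNFB they were 237, 185.5 and 121.9, and with H2O2 they were 110, 79.8 and 100.7. The DPI + DNFB arrays spread over a wide range below the non-treated and above the other arrays, and the H2O2 arrays were all above the DNFB arrays. Sun3 stood at 18.7% ± 1.73 of the non-treated mean with DNFB, 18.2% ± 3.55 with DPI and 48.4% ± 15.4 with DPI + DNFB. With H2O2 it stood at 25.8% ± 4.13, and it fell by 1.81 ± 0.303 on the log2 scale or 3.5-fold (limma, adjusted p = 0.000136).

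Lmnb2, the lamin, was uneven between arrays. Its main probe set had signals of 266, 260.6 and 115.4 on the non-treated arrays, 12.4, 53.2 and 82.1 with DNFB, and 138, 23.9 and 48.6 with DPI. With DPI + DNFB they were 196.6, 138 and 196.7, and with H2O2 120.6, 229 and 168. Non-treated replicate 3 was below DPI replicate 1, so the DPI and non-treated ranges overlapped, and the means with DNFB and DPI were below the level kept for testing. The share was 23% ± 16.3 with DNFB, 32.7% ± 27.9 with DPI and 82.7% ± 15.7 with DPI + DNFB. With H2O2 the share was 80.6% ± 25.4, and the difference of -0.25 ± 0.507 on the log2 scale did not pass the test (limma, adjusted p = 0.778). A dimmer second probe set of Lmnb2, which was not kept, did not return with DPI + DNFB, at 22.7% ± 10.4 of its non-treated mean.

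**Figure D1:**
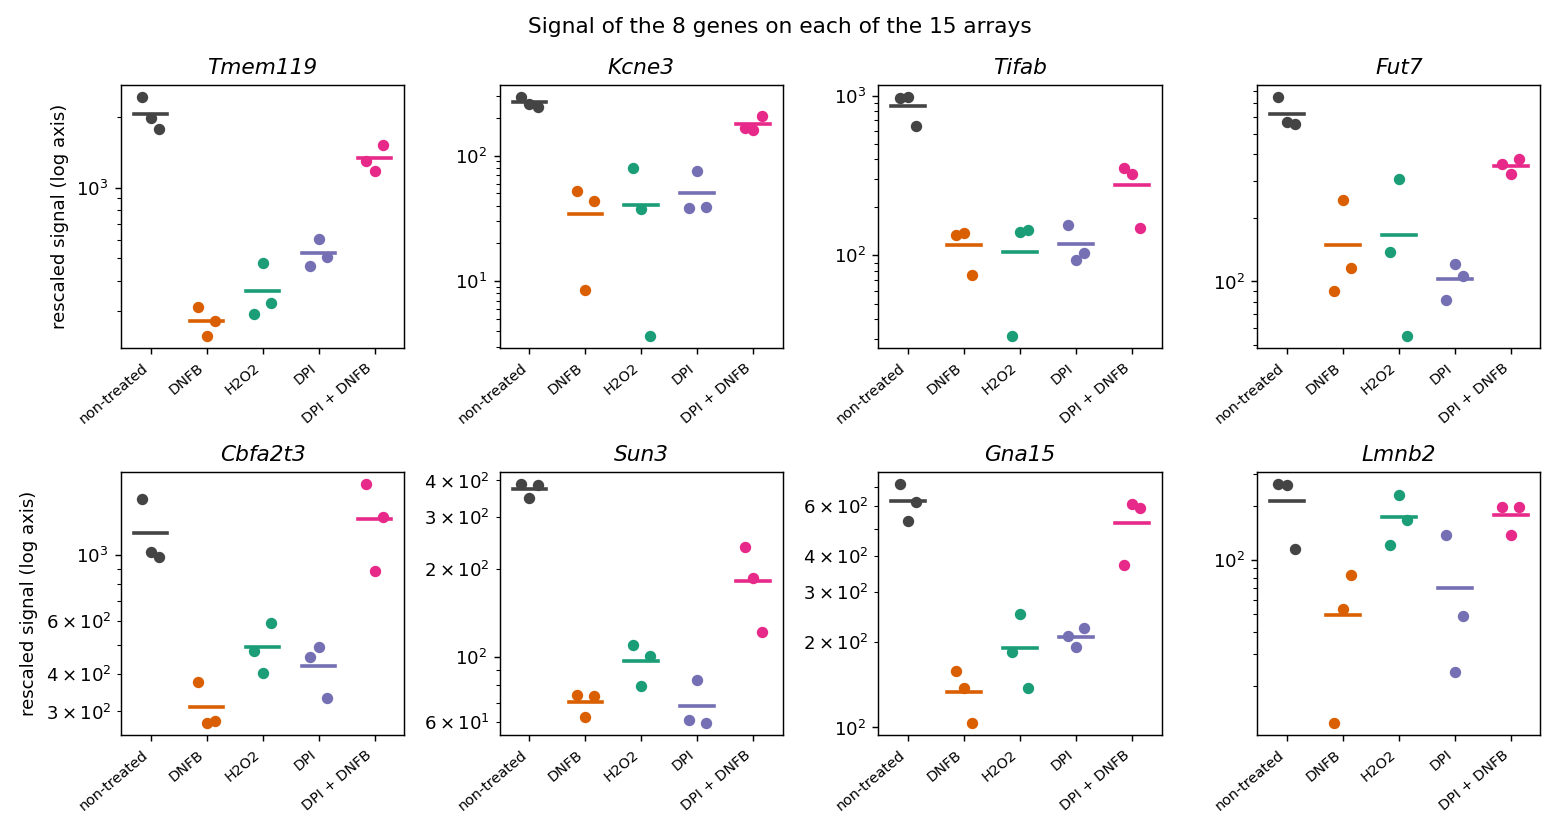
Rescaled signal (log axis, arbitrary units) of the main probe set of each of the 8 genes in the 5 groups, with a point for each array and a bar at the mean of 3 arrays. In 7 of the 8 panels every DPI + DNFB point is above every DNFB and DPI point (Tifab is the exception), and in 5 of the 8 panels, Tmem119, Kcne3, Tifab, Fut7 and Sun3, every DPI + DNFB point is below every non-treated point.

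The plot of signal by array shows how the groups were ordered. Every DNFB array was below every non-treated array for 8 genes, an ordering seen in 23.7% of all genes tested, and every DPI array for 7 genes (not Lmnb2), against 25.2% of all genes. Both orderings were part of the choice. Every DNFB array was below every DPI + DNFB array for 8 genes (28.4% of all genes), and every DPI array for 7 (not Tifab, 21% of all genes). In 5 genes, Tmem119, Kcne3, Tifab, Fut7 and Sun3, the DPI + DNFB arrays were all below the non-treated arrays (23% of all genes), a description on arrays used in the choice. Of these, Kcne3 and Fut7 had differences from non-treated with wide errors, -0.54 ± 0.533 and -0.78 ± 0.403 on the log2 scale. For Cbfa2t3, Gna15 and Lmnb2 those groups overlapped. Among the 3 single treatments, neighbours in the order of means overlapped in all 8 genes except for H2O2 and DNFB in Sun3.

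H2O2 against non-treated asks whether an oxidant given by itself lowered the same genes. It did for 7 of the 8: Tifab, Kcne3, Tmem119, Fut7, Sun3, Gna15 and Cbfa2t3, with falls of 2.35-fold to 8.23-fold. The order of the larger folds rests on single arrays, since without 1 H2O2 array Tifab was at 5.47-fold and Kcne3 at 3.96-fold, against 5.55-fold for Tmem119 with all arrays. Lmnb2 was not called. Kcne3 was called with a mean below the level kept for testing on the H2O2 arrays. Over all genes 17.4% were called lower with H2O2, 2211 of 12701, and 10.9% higher. Of the 635 genes called lower with DNFB and with DPI, 491 (77.3%) were also called lower with H2O2. These comparisons share the same non-treated arrays, so a high non-treated level favours all of the calls and the share is not independent of them. Every H2O2 array was below every non-treated array for the same 7 genes, against 24.8% of all genes, and below every DPI + DNFB array for those 7, against 26.9%. The non-treated arrays of this comparison were also used to choose the genes, so genes picked for a high non-treated level were more likely than others to pass, and the 7 of 8 is not independent of the choice. With the values as deposited, in which 6 arrays had a trimmed mean of 250 and 9 of 500, the calls of Cbfa2t3, Sun3 and Gna15 were lost (adjusted p = 0.352, 0.0752 and 0.0735) with differences of -1.22, -1.77 and -1.64 on the log2 scale, so 4 of 8 were called. Within the arrays of the 500 target the differences ranged from -3.09 (Kcne3) to 0.16 (Lmnb2), and within those of the 250 target from -4.40 (Tifab) to -1.05 (Lmnb2). With the target as a term 7 were called.

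**Figure D2:**
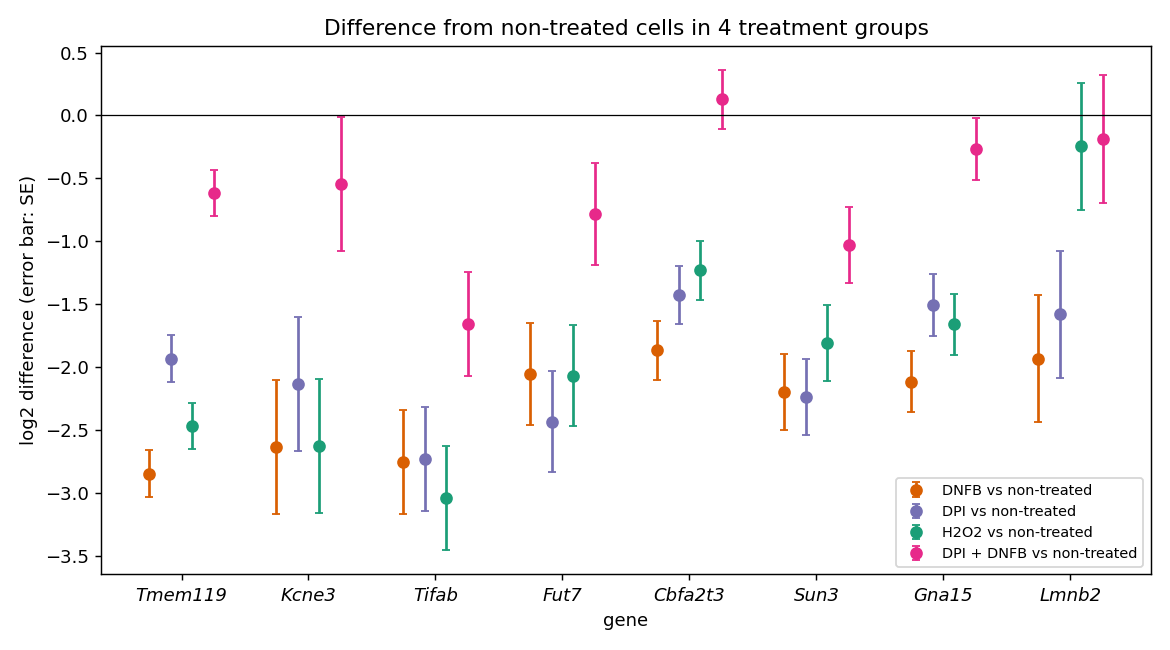
Log2 difference from non-treated cells for each of the 8 genes (vertical axis, log2 of signal plus 15) with DNFB, DPI, H2O2 and DPI + DNFB; points are fitted differences and bars their SE, from 3 arrays a group. The DPI + DNFB points lie above the DNFB and DPI points of the same gene in all 8, and the H2O2 points lie with the single treatments except for Lmnb2, where H2O2 is at -0.25 and DPI + DNFB at -0.19.

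In the plot of differences from non-treated cells, the DNFB differences ran from -2.85 (Tmem119) to -1.87 (Cbfa2t3) and the DPI differences from -2.73 (Tifab) to -1.43 (Cbfa2t3). With DPI + DNFB they ran from -1.66 (Tifab) to 0.13 (Cbfa2t3). The order of the genes was not the same in each: Tmem119 had a larger difference with DNFB (-2.85) than with DPI (-1.93), and Fut7 a larger one with DPI (-2.44) than with DNFB (-2.06). The H2O2 and DNFB differences of Kcne3 were close, at -2.63 and -2.64, and those of Fut7 were -2.07 and -2.06. All comparisons with non-treated cells share the same 3 non-treated arrays.

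The interaction subtracts what DNFB did alone from what it did on top of DPI. It grows with the depth of the single falls as well as with the DPI + DNFB level, so it does not measure the return alone. It was 4.23 ± 0.753 on the log2 scale for Kcne3, 4.16 ± 0.262 for Tmem119, 3.83 ± 0.587 for Tifab, 3.71 ± 0.57 for Fut7, 3.43 ± 0.329 for Cbfa2t3, 3.41 ± 0.429 for Sun3, 3.36 ± 0.347 for Gna15 and 3.33 ± 0.718 for Lmnb2. These are the 8 highest of the 12701 values, a rank that restates their choice on the same arrays and is no test. All values ran from -5.44 to 4.23 with a median of 0.139. Just outside the 8 were Six5 at 3.32 ± 0.651 and 2900026A02Rik at 3.32 ± 0.191. The border between the 8 genes and the next is thus far inside the error. Under the alternatives between 2 and 8 of the genes remained among the 8 highest.

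**Figure D3:**
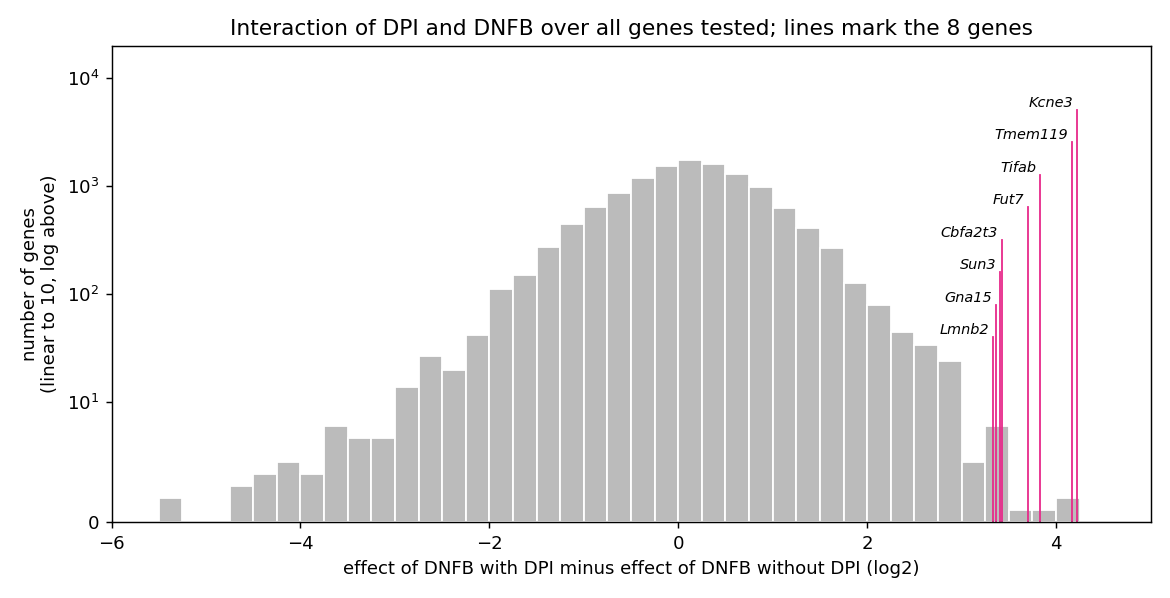
Number of genes (vertical axis, linear to 10 and log above) by the interaction of DPI and DNFB (horizontal axis, log2, in bins of 0.25), over all 12701 genes tested; vertical lines mark the 8 genes and their heights carry no value. The lines stand at the right end, from 3.33 (Lmnb2) to 4.23 (Kcne3). The 8 genes were chosen on the arrays that give this value.

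In the distribution of the interaction, the 8 genes stand at the right end, which restates their choice. Adding the DNFB and DPI differences on the log2 scale gives the level that a zero interaction would need with DPI + DNFB. For Kcne3 that level would be below a signal of 0, which no array can show. For Sun3, Lmnb2 and Tifab it would be a signal of 2.98, 3.92 and 4.22, and for Fut7 13.1. It would be 36.4 for Gna15, 59.7 for Tmem119 and 105 for Cbfa2t3, whose measured means with DPI + DNFB were 524.5, 1332 and 1317.

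Other genes were also low with either compound, with or without a return when both were given. Of 12701 genes, 13.9% were called lower and 10.5% higher with DNFB, 18.4% lower and 13.3% higher with DPI, and 635 genes (5%) were called lower with both. Of those 635, 536 also had a called positive interaction, which is 4.22% of all genes. Counts for the pattern in the closing sections are of this form. It does not need a return: Tal1 met it with -1.29 for DNFB, -1.40 for DPI, -1.38 for DPI + DNFB and an interaction of 1.31. A stricter form, in which DPI + DNFB was also called higher than DNFB and higher than DPI, was met by 178 genes, or 1.4%. All of the 8 genes are in the 536 and 7 are in the 178, Tifab being outside. Their place there restates the choice and is no test of them. Of the 635 genes, 356 (56.1%) were still called lower with DPI + DNFB, against 18.7% of all genes called lower and 15% higher there. Among the 8 genes 3 were, fewer than the 5 whose DPI + DNFB arrays were all below the non-treated arrays. Both counts are given as a description with no test.

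The 8 genes followed each other over the 15 arrays. The Pearson r of the 28 pairs ran from 0.403 to 0.958 with a median of 0.807. Against the mean of the other 7, r was highest for Tmem119 (0.956), Gna15 (0.931) and Sun3 (0.91) and lowest for Lmnb2 (0.592). These values share the arrays and the rule and are descriptions.

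Of the genes outside the 8, those most like their mean profile over 15 arrays were Ttc5 (r = 0.967), Slc43a2 (0.963), Loxl3 (0.962), Hk2 (0.952), Pdlim2 (0.942), Rtn4rl1 (0.942), Dbnl (0.936) and Hip1 (0.934). Ttc5 encodes a cofactor of p53, Slc43a2 an amino acid transporter, Loxl3 a lysyl oxidase and Hk2 a hexokinase of glycolysis. Slc43a2 had a mean signal of 1667 ± 195 (SD, n = 3) in non-treated cells, 494 ± 33 with DNFB, 494 ± 33.7 with H2O2, 623 ± 22.7 with DPI and 1262 ± 183 with DPI + DNFB. Loxl3 was 2142 to 2514 on the non-treated arrays, 635 to 673 with DNFB, 817 to 901 with H2O2, 891 to 1038 with DPI and 1479 to 1987.5 with DPI + DNFB. It was the gene most like Tmem119 (r = 0.979) and most like Gna15 (0.968). Hk2 went from 2949 ± 539 (SD, n = 3) in non-treated cells to 1165 ± 228 with DNFB and 1257 ± 168 with DPI, and stood at 1989 ± 55.5 with DPI + DNFB. The genes most like the others were Ehmt1 for Kcne3 (0.917), Arrb1 for Tifab (0.931), Nfam1 for Fut7 (0.903), Iqce for Cbfa2t3 (0.943), Pdlim2 for Sun3 (0.943) and Orai2 for Lmnb2 (0.857). The group means of the first 8 of these genes were all at a signal of 494 or above.

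Close relatives of the 8 genes differed among themselves. Of 10 relatives bright enough to test, H2O2 lowered 3, DNFB lowered 3 and raised 1, DPI lowered 2, and DPI + DNFB lowered 5. Their median log2 difference with H2O2 was -0.01, against -0.06 over all genes. The other lamins, Lmna and Lmnb1, the SUN-domain gene Sun2 and the corepressor Cbfa2t2 passed in none of those comparisons. With H2O2 their log2 differences were 0.26 ± 0.162, -0.49 ± 0.194, 0.25 ± 0.166 and -0.03 ± 0.152. Gna11, the Gq-class relative of Gna15, fell in all 4 (-0.82 to -0.66 on the log2 scale), and had about the same difference with DPI + DNFB (-0.81 ± 0.149) and with DNFB (-0.82 ± 0.149). Gnaq, another of that class, rose with DNFB (0.48 ± 0.128, adjusted p = 0.00802) and fell with DPI + DNFB (-0.41 ± 0.128, adjusted p = 0.017), the second call being lost under quantile scaling. Tifa, the adaptor that Tifab restrains, fell with H2O2 (-0.79 ± 0.177, adjusted p = 0.00203) and DNFB (-0.90 ± 0.177, adjusted p = 0.000731), and stood at 0.20 ± 0.177 with DPI and 0.14 ± 0.177 with DPI + DNFB. Fut8, which adds the core fucose of N-glycans, fell with H2O2 (-1.04), DNFB (-0.86) and DPI + DNFB (-0.88), and stood at 0.06 with DPI.

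Of the genes reported together with Tmem119 in microglia and macrophages, 18 were bright enough to test. H2O2 lowered 4 and raised 1, DNFB lowered 5, DPI lowered 5 and raised 2, and DPI + DNFB lowered 3 and raised 2. The interaction was positive in 8, with a median of 0.79 against 0.14 over all genes, and over all genes 17.3% were called positive and 13.8% negative. Gpr34, a lysophosphatidylserine receptor, was 560.3, 722 and 626 on the non-treated arrays and 103 to 129 with DNFB. It fell with H2O2 (-2.38 ± 0.367), DNFB (-2.30 ± 0.367) and DPI (-2.30 ± 0.367), and was still lower with DPI + DNFB (-1.88 ± 0.367, adjusted p = 0.000549). P2ry13, an ADP receptor, fell with H2O2 (-1.43 ± 0.218), DNFB (-1.54 ± 0.218), DPI (-1.59 ± 0.218) and DPI + DNFB (-1.07 ± 0.218). P2ry12, the ADP receptor used as a microglia marker, fell with H2O2 (-1.61 ± 0.333) and DNFB (-1.68 ± 0.333) but did not pass with DPI (-0.61 ± 0.333) or DPI + DNFB (-0.52 ± 0.333). Csf1r, the receptor for the macrophage growth factor CSF1, was at 15075, 18634 and 14992 on the non-treated arrays. It was 6636 to 6822 with DNFB, 8344 to 8876 with DPI and 10529 to 12202 with DPI + DNFB, and fell in all 4 comparisons, with log2 differences of -1.44 with H2O2, -1.26 with DNFB, -0.90 with DPI and -0.52 with DPI + DNFB. Sparc, a secreted matrix protein, rose with DPI (0.99 ± 0.352) and DPI + DNFB (1.46 ± 0.352).

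A separate list of 6 microglia markers had 5 bright enough to test, and their summed signal was 1302 to 1397 on the non-treated arrays. It was 575 to 590 with DNFB, 439 to 716 with H2O2, 618 to 705 with DPI and 826 to 1026 with DPI + DNFB, highest in non-treated cells and next with DPI + DNFB. Of the 5 tested, H2O2 lowered 2, DNFB lowered 2, DPI lowered 1 and DPI + DNFB lowered 1. The largest part of the sum in non-treated cells was Gpr34 (mean 636). Siglech and Fcrls went another way, with means of 110.6 and 142.4 in non-treated cells, 105.7 and 138.9 with DNFB, and 184.4 and 191.7 with DPI + DNFB. Sall1 was the marker that was not kept. Mast cell markers had a summed signal of 1851 to 2051 on the non-treated arrays, 888 to 1199 with H2O2, 1176 to 1847 with DNFB, 915 to 1145 with DPI and 751 to 779 with DPI + DNFB. Most of that sum was Kit, with a mean of 1764 in non-treated cells. Of the 2 tested, Kit fell with H2O2 (-1.05 ± 0.187), DPI (-1.20 ± 0.187) and DPI + DNFB (-1.96 ± 0.187). The other, Tpsb2, passed in no comparison with non-treated cells. Its means were 80.57 in non-treated cells, 69.63 with DNFB, 105.8 with H2O2, 125.6 with DPI and 132.5 with DPI + DNFB. Keratinocyte markers had a summed signal of 276 to 515 on the non-treated arrays, 519 to 668 with DNFB, 468 to 557 with H2O2, 382 to 572 with DPI and 406 to 856 with DPI + DNFB. Of the 3 tested, Krt5 rose with DNFB (1.73 ± 0.458) and with DPI + DNFB (1.28 ± 0.458), and Trp63 rose with DPI + DNFB (1.17 ± 0.408). Melanocyte markers had a summed signal of 999 to 1219 on the non-treated arrays, 714 to 933 with DNFB, 630 to 770 with H2O2, 968 to 1431 with DPI and 1036 to 1717 with DPI + DNFB, and of the 3 tested Mitf fell with H2O2 (-0.77 ± 0.177). The part of these lists in the 8 genes' values was not tested.

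**Figure D4:**
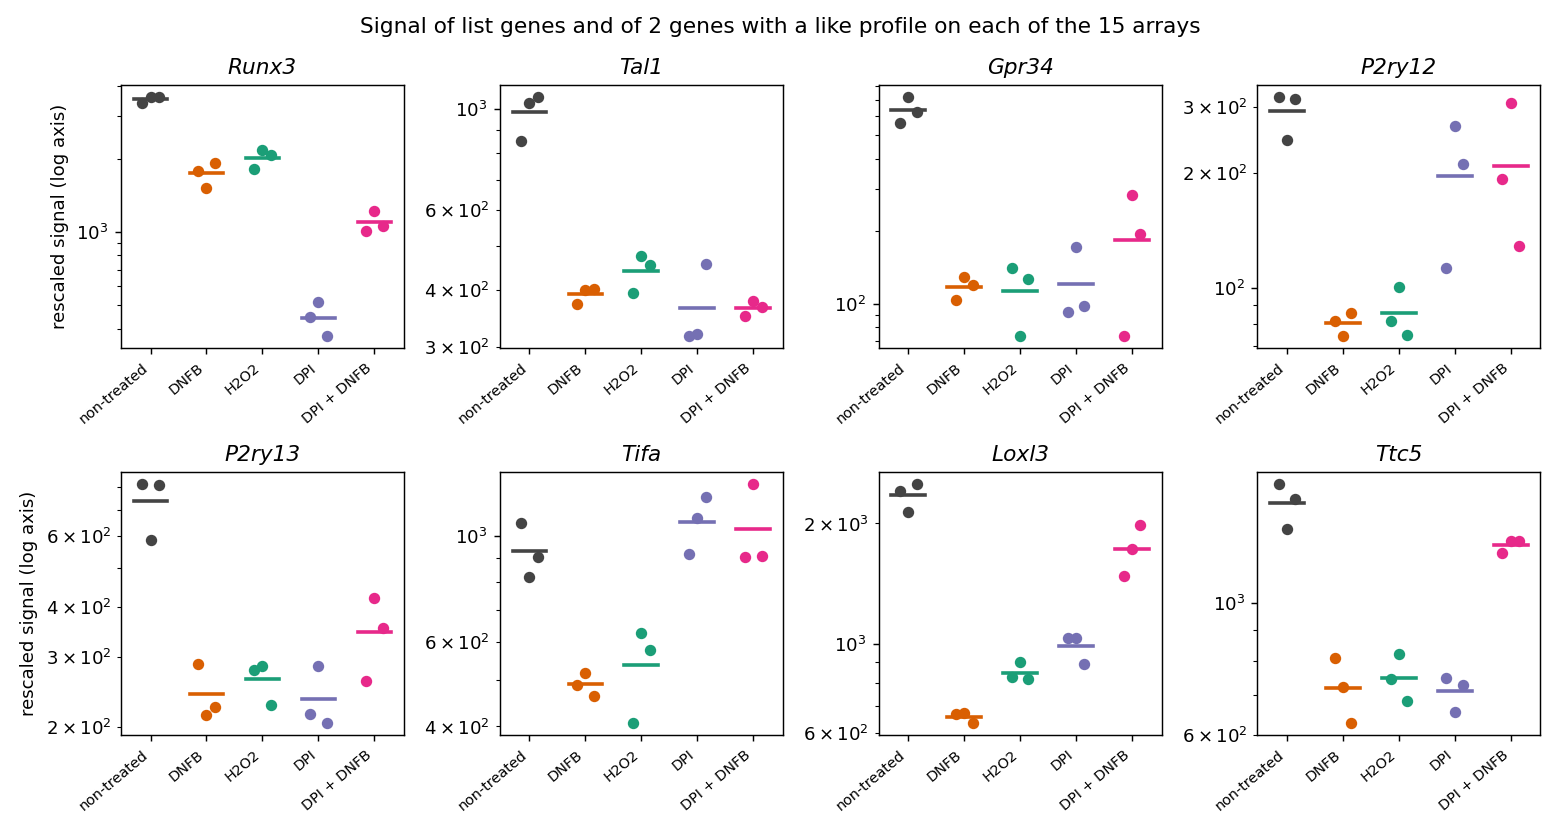
Rescaled signal (log axis, arbitrary units) of 8 genes outside the picked set, in the 5 groups, with a point for each array and a bar at the mean of 3 arrays: the RUNX and TAL1 genes, microglia genes, Tifa, and the like-profiled Loxl3 and Ttc5. Runx3 is lowest with DPI, Tal1 is low in all 4 treated groups, and Loxl3 and Ttc5 return with DPI + DNFB.

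The plot of genes outside the set shows the partners of Cbfa2t3. Of 18 partner and RUNX genes tested, H2O2 lowered 5, DNFB lowered 3 and raised 1, DPI lowered 4 and raised 1, and DPI + DNFB lowered 3 and raised 1. Runx3 was 3385, 3593 and 3592.5 on the non-treated arrays, 1785, 1516 and 1920.1 with DNFB, and 445, 514 and 372 with DPI. With DPI + DNFB it was 1008, 1219.7 and 1058. Runx3 was thus between its DPI and its DNFB level when both were given, and fell in all 4 comparisons (-2.96 ± 0.133 with DPI, -1.68 ± 0.133 with DPI + DNFB, -1.02 ± 0.133 with DNFB and -0.80 ± 0.133 with H2O2). Tal1, the blood-cell transcription factor that recruits the corepressor, fell with H2O2 (-1.12 ± 0.168), DNFB (-1.29 ± 0.168), DPI (-1.40 ± 0.168) and DPI + DNFB (-1.38 ± 0.168). Lmo4, a LIM-domain adaptor, rose with DPI (1.21 ± 0.257, adjusted p = 0.00118). Lyl1 rose with DPI + DNFB (1.52 ± 0.524), a call lost under quantile scaling.

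In the lamina and nuclear envelope list, with 17 genes tested beside Lmnb2 and Sun3, H2O2 lowered 3, DNFB lowered 3 and raised 2, DPI lowered 5 and raised 1, and DPI + DNFB lowered 6 and raised 1. Tmpo, the lamin-binding LAP2, had signals of 3753, 3330 and 3762 on the non-treated arrays and fell with H2O2 (-1.07 ± 0.0985) and DNFB (-0.88 ± 0.0985), with -0.18 ± 0.0985 for DPI and -0.20 ± 0.0985 for DPI + DNFB. Syne3, a nesprin that binds SUN proteins, fell with H2O2 (-1.34 ± 0.334), DPI (-1.15 ± 0.334) and DPI + DNFB (-0.98 ± 0.334). Tor1a, a torsin, and Tor1aip1, which binds it, fell with DPI (-1.33 and -0.64) and DPI + DNFB (-0.84 and -1.21).

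In the selectin ligand list 17 genes were tested beside Fut7. H2O2 lowered 4 and raised 2, DNFB lowered 2 and raised 3, DPI lowered 6 and raised 3, and DPI + DNFB lowered 6 and raised 2. Selplg, which encodes PSGL-1, a protein that carries the sugar Fut7 completes, was 1167, 1322.5 and 1159.9 on the non-treated arrays, 544, 508 and 629 with DNFB, 953, 948 and 748 with DPI, and 1402.5, 1357 and 1529 with DPI + DNFB. It fell with H2O2 (-1.02 ± 0.144, adjusted p = 2.1e-05) and DNFB (-1.10 ± 0.144, adjusted p = 9.28e-06). Its smaller fall with DPI (-0.46 ± 0.144, adjusted p = 0.0182) was lost under quantile and median scaling, and with DPI + DNFB it stood at 0.23 ± 0.144. Fut4, the other leukocyte fucosyltransferase of this pathway, fell with DPI (-1.53 ± 0.331) and DPI + DNFB (-1.24 ± 0.331) and stood at 0.71 ± 0.331 with DNFB. Tpst2, which sulphates PSGL-1, fell with H2O2 (-0.64), DPI (-1.36) and DPI + DNFB (-0.67). St3gal4 fell with H2O2 (-1.43 ± 0.26), DNFB (-0.75 ± 0.26), DPI (-0.76 ± 0.26) and DPI + DNFB (-0.73 ± 0.26). All but the H2O2 call of St3gal4 were lost under quantile and median scaling. Fcsk fell with H2O2 (-1.36 ± 0.187) and stood at -0.04 ± 0.187 with DPI + DNFB.

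In the G protein list 21 genes were tested beside Gna15. H2O2 raised 7 and lowered 1, DNFB raised 5 and lowered 3, DPI raised 3 and lowered 2, and DPI + DNFB raised 6 and lowered 3. Among the regulators of G protein signalling, Rgs1 rose with H2O2 (1.39 ± 0.152), DNFB (1.43 ± 0.152) and DPI + DNFB (0.92 ± 0.152), and Rgs16 rose with H2O2 (2.55 ± 0.493), DNFB (3.06 ± 0.493), DPI (1.44 ± 0.493) and DPI + DNFB (1.49 ± 0.493), the last call being lost under quantile scaling. Gna13 rose with H2O2 (1.05 ± 0.118) and DNFB (1.0 ± 0.118) and stood at -0.09 ± 0.118 with DPI + DNFB.

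In the TIFA and TRAF6 list 15 genes were tested beside Tifab. H2O2 raised 3 and lowered 2, DNFB raised 5 and lowered 2, DPI raised 4 and lowered 2, and DPI + DNFB raised 2 and lowered 1. Tab3, a subunit of the TAK1 kinase complex, rose with each single treatment, by 1.13 ± 0.136 with H2O2, 0.90 ± 0.136 with DNFB and 1.10 ± 0.136 with DPI, and stood at 0.08 ± 0.136 with DPI + DNFB. Traf2 rose with H2O2 (0.90 ± 0.193), DNFB (0.55 ± 0.193) and DPI + DNFB (0.56 ± 0.193). Irak2 fell with DPI (-1.03 ± 0.209) and stood at -0.21 ± 0.209 with DPI + DNFB. Among potassium channel genes only 7 were bright enough to test beside Kcne3. H2O2 raised 1 and lowered 2, DNFB lowered 2, DPI lowered 3 and DPI + DNFB lowered 3. Kcnab2, a cytoplasmic beta subunit, was 1172, 1208 and 1088 on the non-treated arrays and fell with H2O2 (-0.68 ± 0.166) and DNFB (-1.07 ± 0.166), with 0.09 ± 0.166 for DPI + DNFB. Kcnn4, the calcium-activated channel of leukocytes, rose with H2O2 (0.81 ± 0.166) and fell with DPI (-1.68 ± 0.166) and DPI + DNFB (-0.55 ± 0.166). Kcnk6 fell with H2O2 (-0.37 ± 0.118), DNFB (-0.40 ± 0.118), DPI (-1.20 ± 0.118) and DPI + DNFB (-1.11 ± 0.118), the H2O2 call being lost under median scaling. Kcnk13 fell with DPI (-0.64 ± 0.218), a call lost under quantile and median scaling, and with DPI + DNFB (-1.26 ± 0.218).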

How the data were processed

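RNA of 15 cultures or aliquots (the labels do not say which), 3 in each of 5 groups, was extracted with TRIzol and an RNeasy kit and labelled with a 3′ IVT kit, per the labels' protocols. The authors deposited an intensity per probe set, made with MAS5 in Affymetrix Expression Console per the submitters' processing notes, with no versions given. Deposited trimmed means (2%) were 250 on 6 arrays and 500 on 9, so each array was rescaled to 500. Values were log2(signal + 15). Probe sets mapped to one symbol with a mean at or above the 40th percentile (6.22) were kept, 11 of the 13 for the 8 genes, and the brightest stood for each gene. Group means were fitted to all arrays with limma 3.58.1 in R 4.3.3 (eBayes with trend, 10 residual degrees of freedom), adjusted by Benjamini-Hochberg over 12701 genes in each comparison, with calls at an adjusted p under 0.05, and the steps were tested on simulated data. Precision is limited by the number of arrays; the median SE of a difference was 0.197 (log2).

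The 8 genes and all lists were chosen with earlier results of these data known. Named beside the 8 are their close relatives, up to 4 called genes with the largest difference from each list, and the genes with the highest r. Csf1r, Selplg, the marker genes and the genes ranked next by interaction, Six5 and 2900026A02Rik, were named after their values were seen where the rule did not name them. Gene symbols came from the platform annotation, and 932 probe sets with several symbols and 9160 with none were not used. Same-numbered arrays of different groups deviated with r between -0.003 and 0.144, with a median of 0.074 against -0.033 for arrays of other numbers. Each of the 15 arrays matched best an array of its own number in another group. The replicate number was not a block in the main fit, and a fit with it as a block is given among the alternatives.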

Additional observations from a re-analysis of the deposited data

Results flagged for a closer look

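For these genes of the lists the effect of DNFB with DPI differed from its effect without DPI by the interaction test (limma, adjusted p under 0.05), with 3 arrays a group. No group was large enough for a check of single outlying arrays. The difference, DNFB effect with DPI minus without, was positive on the log2 scale for Gpr34 (2.72), Runx3 (2.30), P2ry13 (2.06), P2ry12 (1.76), Kcnab2 (1.52), Tal1 (1.31), Irak2 (1.02) and Tpst2 (1.01). It was also positive for Tmpo (0.86), Tifa (0.83), Gna11 (0.81), Fcsk (0.71), Kcnn4 (0.71) and Kcnk6 (0.49). Under median scaling the calls of Tifa, Fcsk, Kcnn4 and Kcnk6 were lost, with values of 0.67, 0.55, 0.55 and 0.32. It was negative for Rgs16 (-3.02), Tab3 (-1.92), Gna13 (-1.36), Gnaq (-0.95), Kcnk13 (-0.84), Sun1 (-0.66), Tor1aip1 (-0.63) and Rgs2 (-0.55), and the call of Tor1aip1 was lost under quantile scaling (-0.61). With the values as deposited most of these calls were lost.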

How the results depend on the processing

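Over 31 alternatives (pseudocount, filter, scaling, probe-set rule, variance model, blocks, single arrays left out, and 3 sets of arrays chosen after seeing the data), the H2O2 calls of Tmem119, Tifab and Fut7 held in all, with adjusted p up to 0.000363, 0.000896 and 0.0197. Leaving out each array in turn gave 7 called genes of the 8 each time. It gave 2907 to 3785 genes called with H2O2 (3591 with all arrays), 2502 to 3281 with DNFB (3105), 3264 to 4225 with DPI (4035), 3499 to 4465 with DPI + DNFB (4291), 3483 to 4175 for the interaction (3945) and 399 to 570 for the pattern (536). With the values as deposited the counts were 173, 210, 212, 177, 137 and 13, and 4 of the 8 genes were called. Median scaling gave 331 for the pattern. Keeping a single DPI + DNFB array, replicate 2, which is assumed to vary like the other groups, gave 2113 for DPI + DNFB. With only the 250-target arrays, 1 per group but 2 for DNFB, so that the spread of every group is taken from the DNFB pair, the counts were 1784 with H2O2, 2326 with DPI, 2622 with DPI + DNFB, 2264 for the interaction and 211 for the pattern, and Kcne3 was not called with H2O2 (-1.69, adjusted p = 0.11). With only the 500-target arrays they were 1349 with DNFB, 2558 with DPI, 2265 for the interaction and 206 for the pattern, and Lmnb2 stood at 0.16 with H2O2 (adjusted p = 0.869). These sets hold fewer arrays, and the cause of the other differences was not tested.

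With the replicate number as a block the counts were 3944 with H2O2, 3482 with DNFB, 4429 with DPI, 4687 with DPI + DNFB, 4334 for the interaction and 615 for the pattern, with 7 of the 8 genes called. Each of the 15 arrays correlated best with an array of its own number, a hint from the data and not from the design. Higher calls were 38.4% with H2O2, 42% with DPI and 55.6% for the interaction, and 56.4%, 61.2% and 41% after median scaling, which moved the median of all genes by DPI from -0.01 to 0.15. With the values as deposited they were 57.8% with H2O2, 32.4% with DNFB (43.1% as rescaled) and 70.8% for the interaction. A filter at the 60th percentile removed Kcne3, Sun3 and Lmnb2. Fitting only the groups compared gives no count for the pattern.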
